A study of Caenorhabditis elegans with 2 samples.

Results

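The members described here are 10 genes of the DREAM complex and the synthetic multivulva class B (synMuv B) group of Caenorhabditis elegans: lin-9, lin-13, lin-35, lin-36, lin-37, lin-52, lin-53, lin-54, efl-1 and dpl-1. They were taken as a list of names from among 19973 protein-coding genes, and all 10 were found in the Ensembl WBcel235 annotation. The data are ChIP-seq peak lists that show where eGFP-F16B12.6, a tagged copy of a protein with no standard gene name, was recovered on the genome. The material was whole L1 larvae of mixed sex from strain OP114, which carries the mutation unc-119(tm4063) on linkage group III and the integrated transgene wgIs114. Both biological replicates came from this strain and stage and form 1 group, so no condition or genotype could be compared. Whole larvae mix all cell types, and the tagged protein came from a transgene.

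The DREAM complex joins a retinoblastoma-family protein (LIN-35), an E2F factor with its DP partner (EFL-1 and DPL-1) and a set of MuvB proteins (LIN-9, LIN-37, LIN-52, LIN-53 and LIN-54). It is known as a repressor of cell cycle genes and, in worm somatic cells, of genes normally used in the germline. LIN-36, which carries a THAP DNA-binding domain, and LIN-13, a zinc-finger protein, act in the same genetic class. Loss of such a gene together with a class A gene gives worms with extra vulval tissue, from which the name synMuv comes.

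A summit is the base at which a peak was highest. The 100 bp centred on the summit are shown for 5 members, because each holds one of the 15 8-base sequences with the largest excess at the 2183 summits of the thresholded list over flanking sequence. Capitals mark GCAAACAC, TGGAGCGC and AGACGCAG. All are ce11 sequence from RefSeq, written 5′ to 3′ on the plus strand, at chrIII:8021068-8021167 for lin-36, chrIII:9825134-9825233 for lin-52, chrIII:8904246-8904345 for lin-9, chrIV:13240634-13240733 for lin-54 and chrV:16965800-16965899 for efl-1.
lin-36: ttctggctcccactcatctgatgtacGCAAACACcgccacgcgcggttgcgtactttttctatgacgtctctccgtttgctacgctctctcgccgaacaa
lin-52: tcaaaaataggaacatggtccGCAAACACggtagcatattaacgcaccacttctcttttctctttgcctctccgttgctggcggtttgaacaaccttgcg
lin-9: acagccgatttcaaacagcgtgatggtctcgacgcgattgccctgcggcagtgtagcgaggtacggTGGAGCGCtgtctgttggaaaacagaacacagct
lin-54: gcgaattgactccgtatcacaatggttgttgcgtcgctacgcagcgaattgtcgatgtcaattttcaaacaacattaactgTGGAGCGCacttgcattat
efl-1: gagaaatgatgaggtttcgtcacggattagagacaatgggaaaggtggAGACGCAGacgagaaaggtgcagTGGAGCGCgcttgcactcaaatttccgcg

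Of the 10 genes, 9 had a summit of the thresholded list in the promoter window. This window held 1000 bp before the gene's annotated 5′ end and 200 bp after it. Over all 19973 protein-coding genes 2356 did, which is 11.8%. A gene with such a summit is called bound below. The member without one was lin-37. Each bound member had exactly 1 thresholded summit in its window, and all 9 summits lay upstream of the 5′ end, as did 95.9% of those at all bound genes. Because the list was drawn up with results of these data known, the count is a description and was given no test.

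The share of bound genes differs along the genome and between kinds of genes, so other backgrounds are given beside the count. On chromosome III, where 5 members lie and 4 of them were bound, 564 of 2640 genes were bound (21.4%). Among the 39 other genes with a lin name, 8 were bound (20.5%). With the 1091 strongest thresholded peaks alone, 7 of the 10 members were bound, against 6.83% of all genes. Any summit of the relaxed pooled list, which ranks peaks and background together over 30000 entries, fell in the windows of all 10 members and of 41.0% of all genes. Relaxed entries alone are thus common at promoters.

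**Figure D1:**
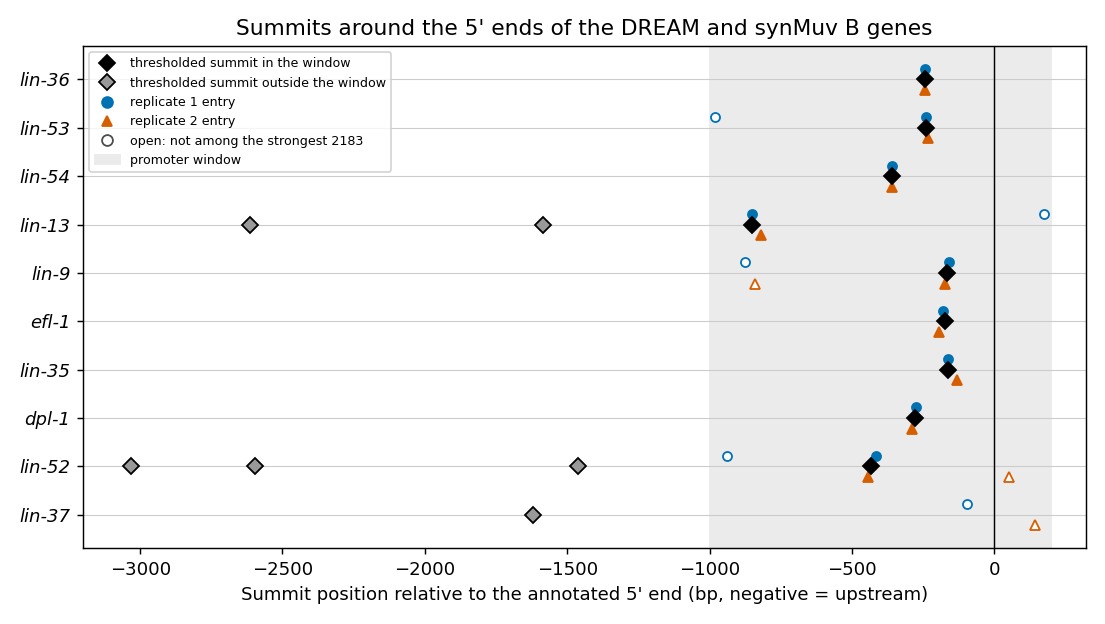
Position of summits relative to the annotated 5′ end (x axis, bp) for each of the 10 genes (y axis). Black diamonds are thresholded summits in the promoter window (grey band), and grey diamonds are other thresholded summits. Circles and triangles are entries of replicates 1 and 2, open where they are not among the strongest 2183 of their list. Replicate entries are drawn inside the window only, so none is shown beside the grey diamonds. In 9 genes both replicates place a filled entry beside the thresholded summit, and lin-37 has only open ones.

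Signal values, which the authors' caller assigned with a scaling that the sources used here do not give, rank entries within one list only. The member with the strongest peak was lin-36, the THAP-domain gene (WBGene00003021, chromosome III, 8016648 to 8020873, minus strand). Its peak ran from 8020982 to 8021237 and had a signal value of 959 and rank 11 of 2183. In replicate 1 the entry had a signal value of 597 and rank 8, and in replicate 2 a value of 362 and rank 14. The summit lay in intergenic sequence at -245 bp in the pooled list, -242 bp in replicate 1 and -245 bp in replicate 2, 11 bp from the short non-coding RNA gene F44B9.11. No other protein-coding gene had this summit in its window. In the pooled list it stood between the peaks of the Mediator subunit gene mdt-22 (signal 959, rank 10) and of mrg-1 and spcs-2 (922, rank 12).

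The MuvB genes of the core complex covered a wide range of strengths. At lin-53, which encodes a histone-binding protein of the RbAp48 family (WBGene00003036, chromosome I, 9618196 to 9619760, minus strand), the peak had a signal value of 199.7 and rank 428. The replicates ranked it 427 and 436, with summits at -240 and -234 bp. At lin-54, the gene of the DNA-binding MuvB subunit (WBGene00003037, chromosome IV, 13241044 to 13243401, plus strand), the peak had a signal value of 186 and rank 452. The replicates ranked it 446 and 447, and their summits were 1 bp apart. Among the bound members these had the smallest ratios of the larger to the smaller replicate rank, 1.02 for lin-53 and 1.002 for lin-54, and dpl-1 was next at 1.02.

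The scaffold gene lin-9 (WBGene00002998, chromosome III, 8900237 to 8904131, minus strand) had a thresholded peak of 62 bp with a signal value of 109.7 and rank 573. Its replicate ranks were 568 and 592, and its summit was at -165 bp, in intergenic sequence. The replicate entries were wider, from 8904176 to 8904405 and from 8904191 to 8904420, so neither replicate shared the narrow width. A second, weak entry lay farther upstream in the lin-9 window, at -858 bp in the pooled list, with a signal value of 10.2 and rank 4823. Both replicates had that weak entry too, at ranks 10891 and 11144, far below the thresholded list.

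lin-52, a small MuvB gene (WBGene00003035, chromosome III, 9824083 to 9824750, minus strand), had the weakest peak of the bound members, with a signal value of 32.7 and rank 1528. The replicates ranked it 1399 and 2023, both within the strongest 2183 entries of their lists, and the rank in replicate 2 was close to that limit. The summit, at -434 bp, was inside a coding exon of ZK632.9, the gene directly upstream on the same strand, which ends 127 bp before lin-52 begins. It lay 248 bp downstream of the 5′ end of ZK632.9 and thus just outside that gene's window.

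lin-37 was the only member without a thresholded summit in the window (WBGene00003022, chromosome III, 7070890 to 7072552, minus strand). Its pooled entry at -39 bp had a signal value of 7.81 and rank 8604. Replicate 1 had an entry at -96 bp with rank 7454 and replicate 2 one at +141 bp with rank 3043, and these summits were 237 bp apart. The replicates thus did not place a shared summit at this 5′ end. The next gene upstream, ZK418.5, lies on the same strand and ends 61 bp before lin-37. Whether lin-37 or lin-52 is transcribed together with its upstream neighbour, as genes of a worm operon are, was not analysed here, and the window of such a gene need not hold its promoter. A thresholded summit lay at -323 bp from ZK418.5 (signal value 76.5, rank 749), which is -1622 bp from lin-37.

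**Figure D2:**
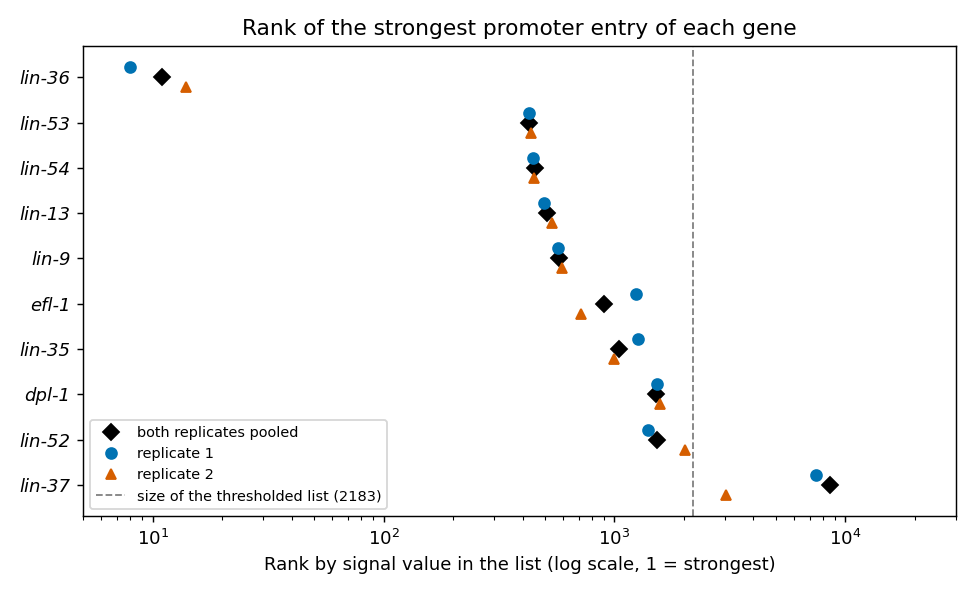
Rank by signal value (x axis, log scale, 1 is the strongest) of the strongest entry in each gene's promoter window (y axis) in the pooled list and in each replicate's list. The dashed line marks the size of the thresholded list, 2183. The ranks of lin-36 lie between 8 and 14, those of lin-53, lin-54, lin-13 and lin-9 between 427 and 592, and all 3 ranks of lin-37 lie beyond the line.

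The retinoblastoma gene and the E2F and DP genes had peaks of middle to low rank. At efl-1, the E2F gene (WBGene00001161, chromosome V, 16958590 to 16965675, minus strand), the peak had a signal value of 60.2 and rank 904, with its summit at -175 bp in intergenic sequence. The replicates ranked it 1235 and 719, a ratio of 1.72. At lin-35, the retinoblastoma-family gene (WBGene00003020, chromosome I, 5807709 to 5815637, plus strand), the signal value was 49.9 and the rank 1050, with replicate ranks of 1263 and 991. At dpl-1, the DP gene (WBGene00001061, chromosome II, 9169910 to 9172565, plus strand), the signal value was 33.03 and the rank 1510, with replicate ranks of 1531 and 1568.

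The order of the weaker members was only partly shared by the replicates. Both placed efl-1 ahead of lin-35, but the ranks of efl-1 in the replicates lay farther apart than those of efl-1 and lin-35 within either replicate. lin-52 and dpl-1 had nearly equal pooled ranks and changed places between replicates. In both replicates lin-36 came first, followed by lin-53, lin-54, lin-13 and lin-9.

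lin-13, the zinc-finger gene (WBGene00003002, chromosome III, 7700338 to 7709491, minus strand), had its peak farther from the 5′ end than any other bound member, at -850 bp, with a signal value of 139 and rank 510. The replicates ranked it 496 and 538. A stronger thresholded peak lay farther upstream, at -1586 bp (signal value 184, rank 456), in no promoter window, and another at -2614 bp (68.1, rank 813), which is -204 bp from the divergent gene C03B8.3. The 2818 bp between lin-13 and C03B8.3 thus held 3 thresholded peaks. lin-52 was the other bound member with further thresholded summits within 4000 bp upstream, at -1463, -2597 and -3033 bp. The strongest of these (312, rank 289) was shared by ZK632.10 and ZK632.11, which start on either side of it. The summit at -1463 bp was in the window of ZK632.9, at -781 bp from that gene.

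**Figure D3:**
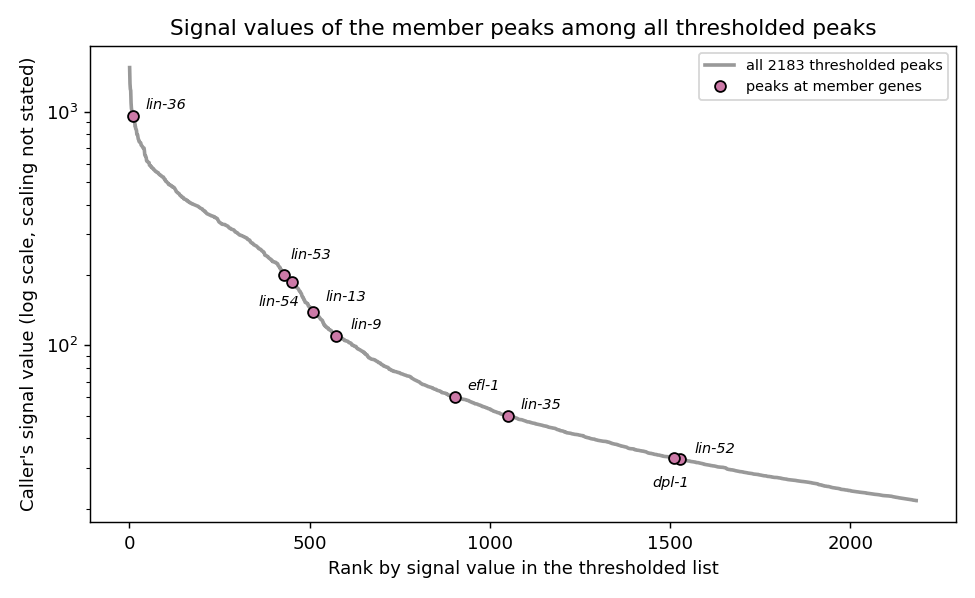
The caller's signal value (y axis, log scale) against rank (x axis) for all 2183 thresholded peaks, with the 9 member peaks marked. lin-36 stands near the top at 959, 4 members lie between 109.7 and 199.7, and efl-1, lin-35, dpl-1 and lin-52 lie between 32.7 and 60.2.

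Over the 9 bound members the median rank was 573 and the median signal value 109.7. Over all 2356 bound genes these were 930.5 and 58.7. The median summit position was -245 bp in the members and -217 bp over all bound genes. Replicate entries agreed in place: the median gap between replicate summits was 15 bp in the members and 15 bp over the 2159 thresholded peaks with an entry in both replicates. The median ratio of the larger to the smaller replicate rank was 1.08 in the members and 1.25 over those peaks, and 4 members, lin-36, efl-1, lin-52 and lin-35, were above the latter. No member exceeded 2.13, the 90th percentile over those peaks. The thresholded list was made with the use of both replicates, so agreement within it is partly built in.

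A summit between genes that start on opposite sides can belong to either, and 4 of the 9 member summits fell in the window of a second protein-coding gene (44.4%, against 59.9% of all bound genes). The lin-53 summit was at -240 bp from lin-53 and -227 bp from nra-2, which encodes an endoplasmic reticulum protein of the nicalin family. The lin-54 summit was at -360 bp from lin-54 but only -33 bp from the ribosomal protein gene rpl-12. The lin-35 summit was at -164 bp from lin-35 and -254 bp from vps-51, a gene of a vesicle tethering complex. The efl-1 summit was at -175 bp from efl-1 and -964 bp from fbxa-90, an F-box gene.

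When a summit counted for 1 gene alone, that with the closest 5′ end, 6 of the 10 members were still bound (lin-9, lin-13, lin-35, lin-36, efl-1 and dpl-1), against 1619 genes in all. lin-53 and lin-54 lost their summits to nra-2 and rpl-12. The lin-52 summit counted for no gene, since the closest 5′ end was that of ZK632.9, whose window does not hold it. The 5′ end of dpl-1 lies within T23G7.2, a gene on the other strand, and its summit fell in an exon of a non-coding transcript of that gene. Annotated 5′ ends in the worm are often splice acceptors of trans-spliced messages, so distances to the true transcription starts may differ.

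The letters at the member summits fell into more than one kind. GCAAACAC, read on both strands, was present in the 100 bp at lin-36 and lin-52, the strongest and the weakest bound members. It was found at 340 of 2183 thresholded summits (15.6%), in 0.412% of equally long stretches 200 bp to one side, and in 0.836% of all promoters taken 200 bp upstream of the 5′ end. It was at 60 of the 100 strongest summits and at 41 of the 1092 weakest (3.75%), lin-52 among them. At lin-36 it began 24 bases before the summit, inside the non-coding RNA gene F44B9.11, and at lin-52 29 bases before. At lin-13 it was absent from the 100 bp and present in the 200 bp around the summit.

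TGGAGCGC was present at lin-9, lin-54 and efl-1, 3 of the 9 member summits. It was at 128 of 2183 thresholded summits (5.86%), in 0.0916% of the stretches to one side and in 0.491% of promoters. Unlike GCAAACAC it was not concentrated at strong peaks, with 5.22% of the 1091 strongest and 6.50% of the 1092 weakest. In these 3 members it read in the same direction on the plus strand and began 16, 31 and 21 bases after the summit. At lin-9 this was just past the end of the thresholded peak (8904310), though within the entries of both replicates. At lin-54 and efl-1 it was inside the thresholded peak. lin-9 and efl-1 lie on the minus strand and lin-54 on the plus strand. Relative to the gene, direction and side of the summit were thus opposite at lin-54. AGACGCAG was at efl-1 only, over the summit itself, and at 10.6% of all thresholded summits. Its core ACGCAG was at lin-54 and efl-1 and at 18.8% of thresholded summits, against 2.89% of promoters.

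Several of the 15 8-base sequences overlap one another, as GCAAACAC and CGCAAACA do. Of these 15, 5 of the 9 member summits held at least 1. At all thresholded summits this share was 46.5%, and in the stretches to one side 3.11%. The 15 were chosen for an excess at these same summits over these stretches. This gap, like those of GCAAACAC and TGGAGCGC above, is thus partly built in. lin-36 held 6 of them, efl-1 held 4 and lin-52 held 3. lin-13, lin-35, lin-53 and dpl-1 held none within 100 bp, although lin-53 and lin-13 had the second and the fourth strongest member peaks. The share of G and C in the 100 bp had a median of 47% in the members and 47% over all thresholded summits.

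Letters that DREAM proteins are known to bind were also searched on both strands. The E2F-type sequences TTTCGCGC, TTTCCCGC and TTTGGCGC were in none of the 9 member summits within 100 bp, and at 2.75%, 1.60% and 1.15% of all thresholded summits. TTTGAA, of the type that LIN-54 binds, was at lin-9, lin-52, lin-53, lin-54 and dpl-1, but it is common, at 19.6% of thresholded summits and 29.5% of promoters. TTCGAA was at none of the members and at 7.51% of thresholded summits. These matches describe letters and show nothing of where DREAM itself sits.

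Of 54 genes in 8 lists, which are set beside the 11.8% of all genes, 15 were bound (27.8%). In a list of 6 other synMuv B genes the only bound one was lin-15B, which encodes another THAP-domain protein (signal value 413, rank 163, summit at -958 bp). NuRD and MEC genes were listed apart, below. The list of 6 thus does not cover all other genes of class B, and its count depends on this split. The heterochromatin gene hpl-2 and the methyltransferase gene met-2 were not bound, nor were lin-61, lin-65 and tam-1. The relaxed pooled entry of lin-61 had rank 2319, just past the end of the thresholded list, and met-2 had no pooled entry in its window. Of the 4 synMuv A genes lin-38 was bound (68.7, rank 810), with a summit also in the window of mrpl-37.

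All 4 genes of the synMuv C list, which encode parts of the Tip60 acetyltransferase complex, were bound, at middle to low ranks. The TRRAP gene trr-1 had rank 790, the SWR1-type ATPase gene ssl-1 rank 1113, the Enhancer of Polycomb gene epc-1 rank 1241 and the acetyltransferase gene mys-1 rank 2028. The replicates ranked mys-1 2460 and 1813, so it was outside the strongest 2183 entries of replicate 1. With the 1091 strongest peaks alone, 1 of the 4, trr-1, was bound. The trr-1 summit was nearer to C47D12.2 (-172 bp against -207 bp), and trr-1 was not bound when a summit counted for the closest 5′ end alone. The epc-1 summit was also in the window of Y111B2A.12, at -435 bp against -268 bp from epc-1. Of 8 NuRD and MEC genes 3 were bound, the Mi-2 gene let-418 (rank 571), mep-1 (1264) and the MTA-type gene lin-40, whose peak was the last of the thresholded list (2183) and had rank 3031 in replicate 2. In the same list dcp-66 and hda-1 had relaxed pooled entries not far past that end, at ranks 2426 and 2482.

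Of 8 synMuv suppressor genes 3 were bound, the chromodomain gene mrg-1 (rank 12), the remodeller gene isw-1 (332) and mes-2 (648), a histone methyltransferase gene. The mrg-1 summit was nearer to spcs-2 (-131 bp against -244 bp). Of 10 genes for control of the G1 phase 2 were bound, the cyclin E gene cye-1 (rank 817) and the F-box gene lin-23 (1162), with summits at -562 and -980 bp. The cye-1 summit was closer to pqn-21 (-86 bp). Not far past the end of the thresholded list were the relaxed pooled entries of cdk-2 (rank 2393) and cul-1 (2747). Of 10 genes of the EGF and Ras pathway in vulval development only the adaptor gene sem-5 was bound (rank 694). None of the 4 germline granule genes, pgl-1, pgl-3, glh-1 and glh-2, had a thresholded summit in its window, and pgl-1 alone had a relaxed pooled entry (rank 20037). With lists of this size 1 gene changes a share by 10 percentage points or more.

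**Figure D4:**
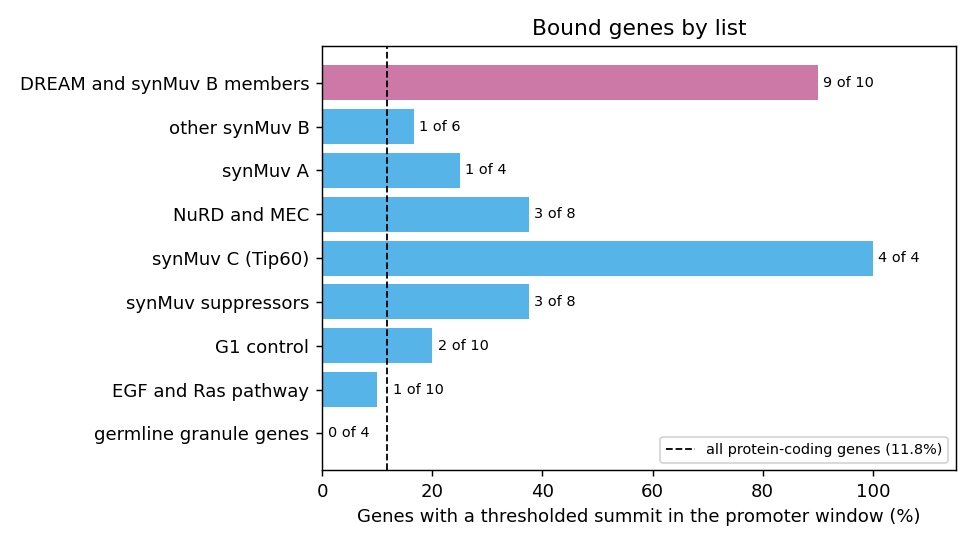
Percentage of genes with a thresholded summit in the promoter window (x axis) for the 10 members and 8 related lists (y axis), with the number bound of the number in each list. The dashed line is the 11.8% of all protein-coding genes, and the members (9 of 10) and the synMuv C list (4 of 4) have the largest shares.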

How the data were processed

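The authors' readme notes derive each relaxed list from alignments of 1 replicate, or of both pooled, and 1 control file. They derive the thresholded list (optimal irreproducible discovery rate peaks) from those 3 relaxed lists. The sources used here do not give the aligner, caller, threshold or read depth. The deposited signal values (column 7) and summit offsets (column 10) on ce11 were used, and the 4 lists on ce10 were not. Entries were ranked by signal within each list. Summits were placed in promoter windows of Ensembl release 115 genes (WBcel235, the same coordinates), and replicate entries were matched by at least 1 bp of overlap. Sequence came from RefSeq WBcel235. The members and lists were chosen with earlier results of these data known, and the marked 8-base sequences and the chromosome III and lin-name backgrounds after their values were seen. Genes named are the members, genes sharing their summits, the peaks ranked beside lin-36, and bound genes of each list (the 3 strongest where there were more than 4). Other related genes named without a thresholded peak were chosen after their values were seen. No test was made, since there is 1 group and no contrast. Ranks stand in for signal values across lists. Python 3.11.15, NumPy 2.4.6 and Matplotlib 3.10.9 were used, and the window and sequence searches were tested on simulated data. No column of other samples was present.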

Additional observations from a re-analysis of the deposited data

How the results depend on the processing

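No paired analysis was possible because the replicates form 1 group. The number of bound members stayed between 6 and 10 over 8 alternatives, and within 1.5 times of 9 in each: 8 with a 500 bp upstream window (without lin-13; 9.94% of all genes), 10 with a 2000 bp window (14.5%), 9 with all transcript 5′ ends (12.3%), 9 with interval overlap (12.3%), 6 with the nearest 5′ end (8.11%), 7 with the 1091 strongest peaks (6.83%), and 9 without replicate 2 (11.7%) or without replicate 1 (11.3%). With the 2000 bp window the strongest summit of lin-13 had rank 456 and that of lin-52 rank 884. The latter was also at -781 bp from ZK632.9, and the summit that lin-37 gained was that at -323 bp from ZK418.5. With the 500 bp window the other synMuv B and G1 lists fell to 0 bound genes. With the 1091 strongest peaks, NuRD and MEC, synMuv C and G1 each had 1, and all related lists together 9 in place of 15. With the nearest 5′ end G1 had 1, and with all transcript 5′ ends the EGF and Ras list had 2. Single replicates gave 1 to 2 other synMuv B genes and 2 to 4 G1 genes. In 200 bp at the summit TTTCGCGC was at 2 members (3.89% of all thresholded summits) and TTTCCCGC at 1 (2.84%), and in 60 bp TTTGAA was at 1 (7.05%). The sequence windows for the marked 8-base sequences were chosen after seeing the data and gave counts within 1.5 times. Read depth is unknown, no untagged sample was analysed here, and neighbouring genes share summits.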
